A study of Arvicanthis niloticus with 59 samples.

Results

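Forebrain was set against hindbrain and spinal cord in Arvicanthis niloticus, the Nile grass rat, an African rodent that is active by day and is used to study circadian rhythm and diet-induced diabetes. The forebrain side held 3 RNA-seq libraries, from rostral cortex, caudal cortex and left hippocampus, and the hindbrain and cord side held 3 libraries, from pons, medulla oblongata and proximal spinal cord. The forebrain side is thus cortex and hippocampus, without thalamus and hypothalamus, and the hindbrain side is without cerebellum. These 6 of the 59 libraries in the series were chosen by the brain site named on each, and all 6 came from the same animal, T3F. No treatment, genetic change or age is named for it in the labels. Its sex is not named either, but the series also holds ovary and uterus libraries of T3F, so the animal was female. The other libraries cover further organs of T3F and of 3 more animals. A side is therefore 3 different sites of 1 animal: p-values measure how far the sides differ beyond the spread between sites within a side, and they say nothing about the spread between animals. Polyadenylated RNA was sequenced, and levels are given as TPM (a share of all transcripts in the library, corrected for transcript length), with gene names taken from the mouse orthologues that the submitters assigned.

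The parts of the vertebrate neural tube are told apart early in development by transcription factors that are switched on in bands along its length. Homeobox factors such as Emx2 and the Dlx family mark the future forebrain, while the Hox genes, which lie in 4 clusters, are switched on in hindbrain and cord in nested domains: the genes at one end of a cluster start far forward, and their neighbours start progressively further back. Much of this pattern persists in the adult. Adult forebrain is rich in spiny glutamatergic neurons with a large plasticity machinery at their synapses. Hindbrain and cord hold motor neurons, the noradrenaline and serotonin nuclei, glycine-releasing inhibitory neurons and long myelinated tracts. In such bulk tissue, fewer cells of a type and less RNA per cell cannot be told apart.

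The 6 libraries held between 15509588 and 21468169 expected counts assigned to genes, and between 14433 and 14780 genes reached 1 TPM in each. Across 18970 genes, Spearman's rho of TPM was 0.969 to 0.974 between the forebrain sites, 0.974 to 0.98 between the hindbrain and cord sites, and 0.932 to 0.941 between sites of opposite sides, as a description with no test. The label of brain tissue was borne out by the neuronal gene Snap25, at 583 to 916 TPM in forebrain and 698 to 774 TPM in hindbrain and cord. Markers of tissue next to the brain also differed between the sides and are given with the results they touch.

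Of 14702 genes tested with edgeR's quasi-likelihood test, 1856 (12.6%) were called, meaning a Benjamini-Hochberg adjusted p below 0.05 with a change of at least 1 on the log2 scale. In forebrain 1036 genes (7.05% of those tested) were higher and 820 (5.58%) were lower. In 1022 of the 1036 and 818 of the 820, the 3 forebrain sites lay wholly above or wholly below the 3 hindbrain and cord sites in TPM. The calls came from these same libraries, so this separation is largely built into them. It was not counted over all genes tested and is a description, not added support. The median log2 fold change over all genes tested was 0.01.

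**Figure D1:**
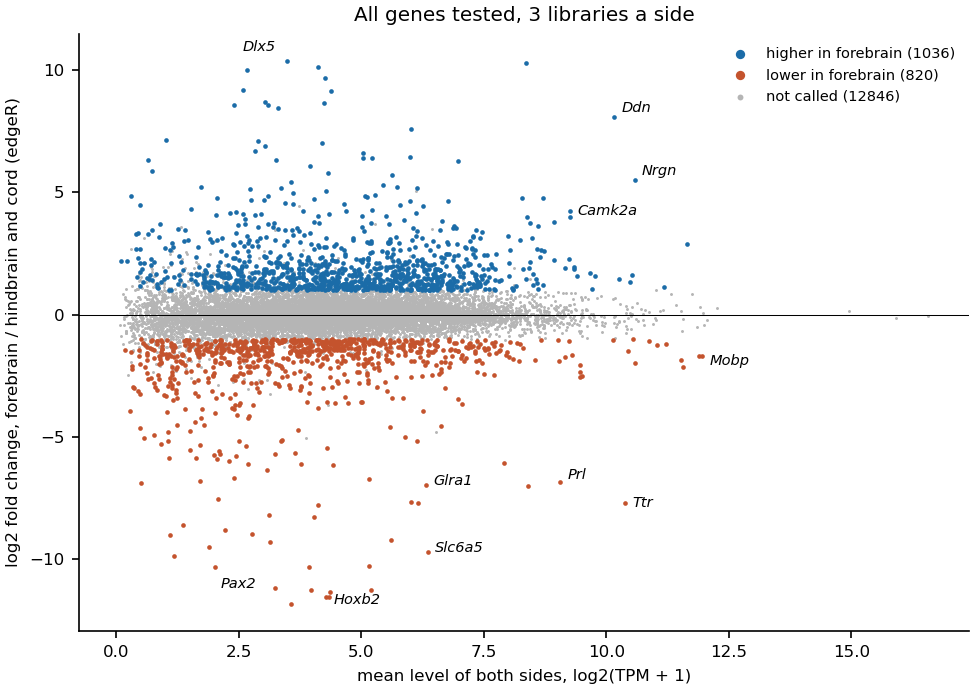
Each point is a gene, with the mean level of both sides on the x axis (log2(TPM + 1)) and edgeR's log2 fold change of forebrain over hindbrain and cord on the y axis; blue points are the 1036 genes called higher in forebrain, orange points the 820 called lower, grey points those not called. Dlx5 and Ddn lie at the top and Hox genes, Pax2 and Slc6a5 at the bottom; for genes at 0 on one side the plotted value depends on the model's prior count and is not a bound.

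The called genes with the highest TPM, up to 5 in each direction, were taken next. On the forebrain side these were Nrgn and Ddn, both of the postsynaptic compartment and described further on, Gpm6a, a neuronal membrane glycoprotein, Ptms, a small acidic nuclear protein, and Camk2n1, an inhibitor of CaM kinase II. Gpm6a stood at 1907, 2440 and 2255 TPM in rostral cortex, caudal cortex and hippocampus, against 672, 695 and 801 TPM in pons, medulla and cord (log2 fold change 1.63 ± 0.14 SE, adjusted p = 0.000622). Camk2n1 stood at 7271 and 8414 TPM in rostral and caudal cortex but at 1259 TPM in hippocampus, against 512, 675 and 1165 TPM in pons, medulla and cord. The hippocampal value was thus close to that of the cord, and the Camk2n1 call (2.88, adjusted p = 0.0225) ended with any of caudal cortex, rostral cortex, medulla or pons left out (2.49 to 2.76, adjusted p 0.0574 to 0.0827), with the hippocampus of animal T426 in place (2.86, adjusted p = 0.0508) and by limma (2.52, adjusted p = 0.0545). Ptms averaged 3157 ± 433 TPM in forebrain and 1486 ± 338 TPM in hindbrain and cord (SD, n = 3 sites each; log2 fold change 1.11), and its change fell under the threshold of 1 without the pons (0.97). On the hindbrain and cord side they included Mobp, an oligodendrocyte gene, Tubb4a, a tubulin gene, Nefl, the light neurofilament, and Nap1l5, an imprinted gene of the nucleosome assembly family. Nap1l5 stood at 758, 1449 and 1081 TPM in rostral cortex, caudal cortex and hippocampus, against 5297, 5181 and 4315 TPM in pons, medulla and cord (log2 fold change -2.15 ± 0.23, adjusted p = 0.00116 by edgeR). Its level was higher still outside both sides, at 6503 TPM in thalamus with hypothalamus and 6698 TPM in midbrain.

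The regulators that pattern the forebrain were the most forebrain-biased list. Of 32 listed genes 31 were tested, 27 were higher in forebrain and none was lower, with a median log2 fold change of 4.27 (3.88 with genes at 0 on the low side set to their bound). Emx1, a factor of cortical progenitors and their excitatory offspring, had 26.5, 71.6 and 21.6 TPM in rostral cortex, caudal cortex and hippocampus, against 0, 0 and 0.163 TPM in pons, medulla and cord. A single count, 1 in the cord library, made up the low side, against 793 in forebrain, a ratio of 808 (95% counting interval 145 to 31900). For Emx2, its relative, the levels were 14.3, 12.4 and 18.9 TPM in forebrain, against 0.0847 TPM in pons and 0 elsewhere. Nr2e1, the orphan nuclear receptor of neural stem cells, is not on the list and was named for its large change. It stood at 17.7, 11.6 and 13.8 TPM in forebrain, against 0.0227, 0.0243 and 0.0498 TPM in pons, medulla and cord (log2 fold change 8.71 ± 0.34, adjusted p = 0.000143 by edgeR; 3.88 by limma on log2(TPM + 1)). None of these genes overlapped between the sides.

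The forebrain regulator list also held the Dlx genes and their partners, which direct the making of forebrain GABA neurons. Dlx5 stood at 34.1, 13.6 and 13.8 TPM in rostral cortex, caudal cortex and hippocampus and had no count in pons, medulla or cord, which makes it at least 55-fold higher in forebrain when the low side is set to 3 counts a library. Dlx6, its neighbour, was at least 33.5-fold higher and Dlx2 at least 14.7-fold higher on the same floor. Dlx5 and Dlx6 lie side by side in mammals, and the labels do not say whether reads were assigned by strand, so reads could be shared between them. Lhx6, a factor of interneurons born in the medial ganglionic eminence, stood at 21.5, 33.8 and 30.2 TPM in forebrain, against 0.636, 0.391 and 0.2 TPM in pons, medulla and cord (log2 fold change 6.09 ± 0.35, adjusted p = 0.000311 by edgeR). The rostral cortex library was the highest of the forebrain libraries for Dlx1, Dlx2, Dlx5 and Dlx6, with 66.8 TPM of Dlx6 against 17.7 TPM in caudal cortex and 24.2 TPM in hippocampus.

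Factors of projection neurons varied among the forebrain sites themselves. Tbr1, a factor of deep-layer and early-born cortical neurons, stood at 106, 222 and 52.6 TPM in rostral cortex, caudal cortex and hippocampus, against 0.711, 0.546 and 0.718 TPM in pons, medulla and cord (log2 fold change 7.58 ± 0.68, adjusted p = 0.000701 by edgeR). Neurod6 ran the other way within forebrain, at 262, 514 and 1649 TPM with its peak in hippocampus, against 27.1, 28.3 and 34.8 TPM in pons, medulla and cord (4.77 ± 0.72, adjusted p = 0.004). Fezf2, of corticospinal neurons, stood at 5.2, 13.6 and 13.3 TPM in forebrain, against 0.0215 TPM in pons and 0 in medulla and cord. The tested members that were not called were Neurod1, Cux2, Sp8 and Prox1. Prox1, a factor of dentate granule cells, stood at 27.1 TPM in hippocampus but at 7.94 and 6.31 TPM in rostral and caudal cortex, against 12.1 to 15.1 TPM in hindbrain and cord, so the sides overlapped (0.08 ± 0.52, adjusted p = 0.924). The mouse-named Gm9804 and Gm43517, which carry no functional name, had no count on the hindbrain and cord side and were at least 46.2-fold and at least 23.7-fold higher in forebrain.

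The Hox genes were absent or nearly so from forebrain and were stepped along hindbrain and cord. Of 39 listed, 37 were in the table. In rostral cortex, caudal cortex and hippocampus 3, 2 and 3 of the 37 reached 1 TPM, against 16 in pons, 22 in medulla and 23 in cord. Their summed level was 5.11, 4.35 and 6.15 TPM in the forebrain sites, against 110 TPM in pons, 754 TPM in medulla and 1594 TPM in cord. All members of paralogue groups 2, 3 and 4 in the table were above 1 TPM in pons, medulla and cord. The 3 members of group 6 were all under 1 TPM in pons and all above it in medulla and cord. No member of groups 11 and 12 reached 1 TPM at any of these sites. Hoxd13, of group 13, did not follow the step, at 1.37, 1.11 and 0.38 TPM in pons, medulla and cord. Nor did Hoxc10, at 0.717, 0.398 and 1.5 TPM there and at 1.31, 0 and 1.38 TPM in rostral cortex, caudal cortex and hippocampus. In thalamus with hypothalamus, midbrain and cerebellum, which belong to neither side as compared here, the sums were 6.76, 4.01 and 7.41 TPM.

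Several single Hox genes showed the same step in their levels, while others peaked in medulla. Hoxb2, of an anterior paralogue group, stood at 0 in all forebrain sites, against 16.4, 42.3 and 52.2 TPM in pons, medulla and cord, and was at least 123-fold lower in forebrain. Hoxd3 was at least 124-fold lower, Hoxb3 at least 106-fold lower, Hoxc4 at least 101-fold lower and Hoxa4 at least 51.1-fold lower. Hoxd3 was highest in medulla, at 8.87, 60.9 and 45.3 TPM in pons, medulla and cord. So were Hoxc4, at 18.99, 104.5 and 91.36 TPM, and Hoxd1, at 1.785, 46.93 and 8.508 TPM. Hoxa5 stood at 0.449 TPM in rostral cortex and 0 in the other forebrain sites, against 2.97 TPM in pons, 84.7 TPM in medulla and 198 TPM in cord. Hoxb5 stood at 0 in forebrain, against 1.05, 27.9 and 35.8 TPM in pons, medulla and cord. For Hoxa7 the levels were 0.0152 TPM in rostral cortex and 0 in the other forebrain sites, against 1.53, 33.0 and 53.6 TPM. Hoxb8, of a posterior group, stood at 1.65, 1.43 and 2.35 TPM in forebrain, against 1.33 TPM in pons, 58.7 TPM in medulla and 546 TPM in cord. Pons was at the forebrain level for that gene. Hoxb9 was listed at 0 in forebrain and in pons, against 6.87 TPM in medulla and 58.4 TPM in cord.

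Counts were high enough for the test in 13 Hox genes, which were all lower in forebrain. The 24 others, Hoxb8 and Hoxb9 among them, fell to the filter, which needs enough counts in as many libraries as a side holds. Genes near 0 in pons could thus fail it with many counts in total, as Hoxb9 did with 361 in hindbrain and cord. Since the members that passed did so through their counts in hindbrain and cord, the count of 13 lower is a description and not support for the difference. The calls of Hoxa5, Hoxb5, Hoxa7, Hoxd4 and Hoxb6 rested on the particular sites, which differ from each other by a large factor. Hoxa5 lost its call without caudal cortex (adjusted p = 0.0538) or rostral cortex (0.0709). Hoxb5 and Hoxa7 lost theirs without any of caudal cortex, rostral cortex, medulla or spinal cord (adjusted p 0.0578 to 0.0717), and Hoxd4 and Hoxb6 also without the hippocampus (0.0526 and 0.101). With the hippocampus of T426 in place, Hoxb5, Hoxa7, Hoxd4 and Hoxb6 lost their calls (adjusted p 0.0503 to 0.0735), and so did Hoxa5, Hoxb5 and Hoxa7 by limma with no filter (0.0504 to 0.0624) and Hoxb6 by limma (0.187). Without the pons 21 Hox genes were tested and all 21 were called lower. Neighbouring Hox genes share transcript sequence and lie close together, so the split of reads among members of a cluster is uncertain. The proteins that bind DNA with Hox factors, and the retinoic acid machinery that switches Hox genes on, did not follow them: of 18 tested, 1 was higher (the retinoic acid hydroxylase Cyp26a1) and 1 lower (the cofactor Meis1), with a median log2 fold change of 0.22. Both calls depended on single sites: Cyp26a1 stood at 3.05 and lost its call without medulla (2.95) or spinal cord (2.63), and Meis1 stood at -2.43 and lost its call without caudal cortex (-2.16), medulla or pons (-2.42 for each) or spinal cord (-2.47), or with the hippocampus of T426 in place (-2.36).

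**Figure D2:**
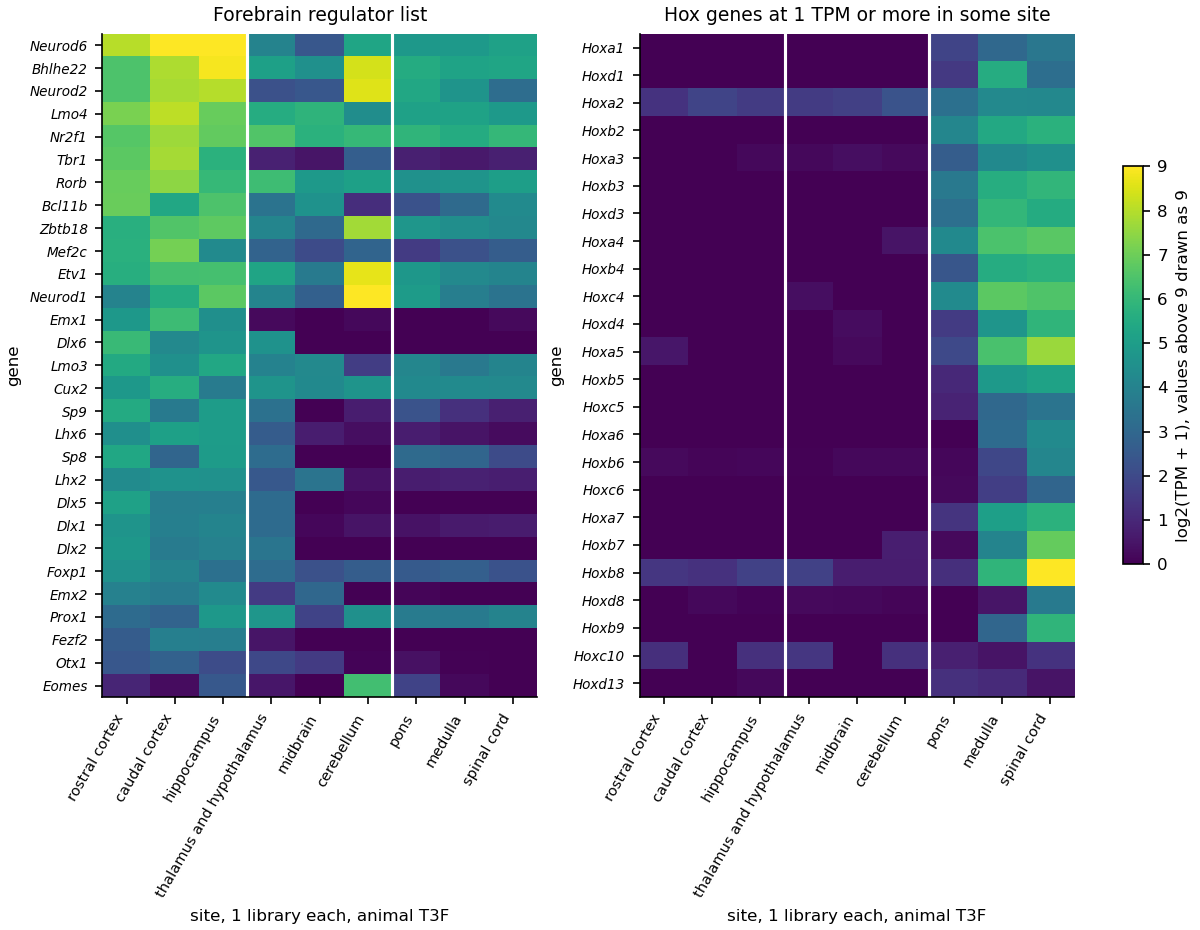
Heat maps of log2(TPM + 1) in 9 brain and cord sites of animal T3F, 1 library each, with the forebrain sites at the left, the hindbrain and cord sites at the right and the sites of neither side between the white lines; rows are genes of the forebrain regulator list that are reported here (left) and the Hox genes at 1 TPM or more in some site, ordered by paralogue group (right). Most forebrain regulators are darker in pons, medulla and spinal cord than at the forebrain sites, and some stay bright in cerebellum or in thalamus with hypothalamus. Hox genes appear in pons, medulla and spinal cord, and among these sites groups 6 to 9 are darkest in pons. The low rows of Hoxc10 and Hoxd13 do not follow this step.

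A list of 37 regulators of hindbrain and cord neurons gave the mirror image. Of 27 tested, 24 were lower in forebrain and 1 was higher, with a median log2 fold change of -4.91 (-4.8 with genes at 0 set to their bound); as with the Hox genes, most members passed the count filter through the side where they are high. Pax2, a factor of inhibitory interneurons of the cord, stood at 0 in every forebrain site, against 9.19, 19.0 and 22.3 TPM in pons, medulla and cord, and was at least 95.2-fold lower in forebrain. Lbx1, of dorsal horn neurons, had 1 count in forebrain and 438 in hindbrain and cord, a ratio of 430 (76.8 to 17000). Lmx1b, of serotonin and dorsal horn neurons, stood at 0.0325, 0 and 0.031 TPM in rostral cortex, caudal cortex and hippocampus, against 4.3, 9.9 and 20.7 TPM in pons, medulla and cord. Irx2, of the Iroquois family, stepped the opposite way along the axis, at 0.18, 0 and 0.257 TPM in forebrain, against 64.7 TPM in pons, 20.01 TPM in medulla and 12.6 TPM in cord (log2 fold change -7.80 ± 1.02, adjusted p = 0.00239 by edgeR; -4.54 by limma on log2(TPM + 1)). Pou4f2, a POU-domain factor named for its large change, was listed at 0 in forebrain, against 6.41, 32.8 and 8.03 TPM in pons, medulla and cord, and stood at 81.7 TPM in midbrain. The member that was higher in forebrain was Egr2, which patterns the embryonic hindbrain and is also an activity-regulated gene of adult neurons. It stood at 66.5, 161 and 22.5 TPM in rostral cortex, caudal cortex and hippocampus, against 0, 2.66 and 3.72 TPM in pons, medulla and cord, and its call ended with the hippocampus of T426 in place of that of T3F (5.21, adjusted p = 0.0695).

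Excitatory neurons load glutamate into vesicles with VGLUT1, VGLUT2 or VGLUT3, encoded by Slc17a7, Slc17a6 and Slc17a8. Slc17a7 stood at 378, 821 and 680 TPM in rostral cortex, caudal cortex and hippocampus, against 87.7, 31.1 and 1.68 TPM in pons, medulla and cord. Slc17a6 had the reverse pattern, at 10.4, 26.4 and 24.8 TPM in forebrain, against 224, 256 and 202 TPM in pons, medulla and cord. Neither gene overlapped between the sides. The change of Slc17a6 was -3.45 ± 0.33 on the log2 scale (adjusted p = 0.00082 by edgeR). That of Slc17a7 was 3.98 ± 1.13 (adjusted p = 0.0388), and its call ended without any of caudal cortex, hippocampus, rostral cortex or medulla (3.74 to 4.23, adjusted p 0.0622 to 0.128) and with the hippocampus of T426 in place (3.84, adjusted p = 0.0727). Within hindbrain and cord its level fell with distance from the pons, and the pons library also held the granule cell genes of the adjoining cerebellum, with Cbln3 at 54.0 TPM and Gabra6 at 11.1 TPM, against 2281 and 683 TPM in cerebellum itself; their part in the Slc17a7 level was not tested. Slc17a8 stood at 1.94 to 8.68 TPM in forebrain and 4.85 to 13.4 TPM in hindbrain and cord, with no call (-0.67 ± 0.62, adjusted p = 0.461).

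Genes of GABA synthesis did not pass the test, while several of glycine transmission were far lower in forebrain. Gad1, which makes GABA, stood at 119, 124 and 143 TPM in rostral cortex, caudal cortex and hippocampus, against 121, 101 and 137 TPM in pons, medulla and cord (0.14 ± 0.14, adjusted p = 0.508). None of the 7 genes of GABA synthesis and transport was called, and their median log2 fold change was 0.14. Glycine transmission, which is the other fast inhibitory system and belongs to hindbrain and cord, was lower in forebrain for 4 of its 7 genes and higher for none. The neuronal glycine transporter Slc6a5 stood at 0.469, 0.0578 and 0.0747 TPM in forebrain, against 166, 190 and 130 TPM in pons, medulla and cord (-9.70 ± 0.50, adjusted p = 0.000228). Glra1, the adult glycine receptor subunit, stood at 1.42, 0.876 and 1.35 TPM in forebrain, against 149, 203 and 119 TPM in pons, medulla and cord (-6.99 ± 0.31, adjusted p = 0.000164). The glial glycine transporter Slc6a9 and the subunit Glra3 were lower by 1.83 and 2.83 on the log2 scale. Glra2 (-0.69), the shared subunit Glrb (-0.81) and the anchor protein Gphn (-0.18) were not called. The vesicular transporter Slc32a1, which serves both GABA and glycine, stood at 57.6 to 83.8 TPM in forebrain and 95.6 to 119 TPM in hindbrain and cord, a change of -0.61 with adjusted p = 0.0408 that did not reach the fold threshold.

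**Figure D3:**
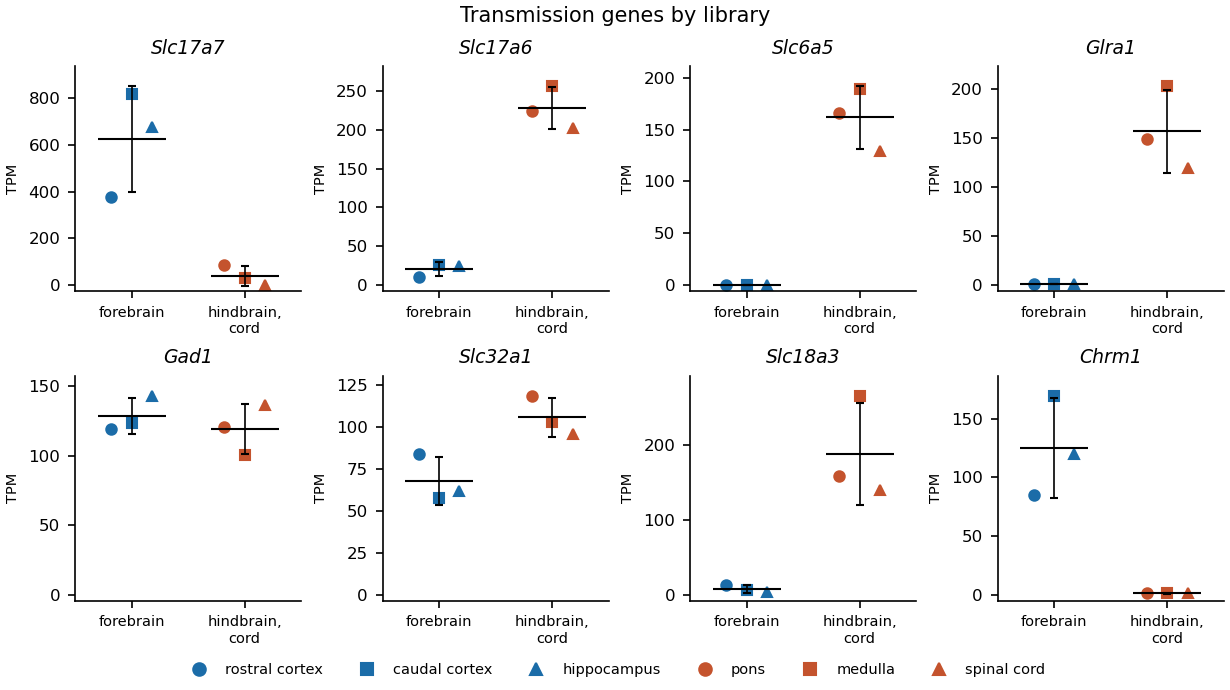
TPM of 8 transmission genes in each library, with forebrain at the left of each panel and hindbrain with cord at the right; points are single libraries with a symbol for each site, and bars are the mean and SD of 3 sites (lower ends under 0 are not drawn). Slc17a7 and Chrm1 are high in forebrain, Slc17a6, Slc6a5, Glra1 and Slc18a3 are high in hindbrain and cord, Gad1 overlaps, and Slc32a1 lies at 57.6 to 83.8 TPM in forebrain and 95.6 to 119 TPM in hindbrain and cord.

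Acetylcholine and monoamine genes were lower in forebrain for 12 of the 14 tested of 17, with a median log2 fold change of -2.80. The vesicular acetylcholine transporter Slc18a3 stood at 13.7, 6.09 and 4.18 TPM in rostral cortex, caudal cortex and hippocampus, against 158, 266 and 140 TPM in pons, medulla and cord (-4.54 ± 0.47, adjusted p = 0.00104 by edgeR). Choline acetyltransferase, Chat, was at 4.73, 0.941 and 0.865 TPM in forebrain, against 26.1, 37.3 and 14.0 TPM in pons, medulla and cord (-3.56 ± 0.70, adjusted p = 0.0104). Medulla was the highest site for both genes, and rostral cortex was the highest of the forebrain sites. Serotonin genes peaked in pons: Tph2, the neuronal tryptophan hydroxylase, stood at 24.8, 28.0 and 14.5 TPM in forebrain, against 331 TPM in pons, 206 TPM in medulla and 19.4 TPM in cord. The cord value lay within the forebrain range, and the call of Tph2 (-3.02, adjusted p = 0.0448) ended without any of caudal cortex, hippocampus, rostral cortex, medulla or pons (-2.29 to -3.20, adjusted p 0.0994 to 0.125), with the hippocampus of T426 in place (-3.05, adjusted p = 0.0803) and by limma (-2.31, adjusted p = 0.146). The noradrenaline transporter Slc6a2 was listed at 0 in forebrain, against 5.34 TPM in pons, 0.953 TPM in medulla and 0.547 TPM in cord. It was at least 20.8-fold lower, with a call that ended without caudal cortex (adjusted p = 0.0604) or rostral cortex (0.0575), with the hippocampus of T426 in place (0.0535) and by limma on log2(TPM + 1) (0.109). The monoamine-degrading enzymes Maoa (-0.40) and Maob (0.05), which glia also make, were not called. Without rostral cortex, 7 of the 14 were called lower.

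Genes of the motor neuron list, some of which are shared with the cholinergic list, were lower in forebrain for 9 of 11 tested, with a median log2 fold change of -3.56. Prph, the peripherin filament of neurons with peripheral axons, stood at 1.16, 4.88 and 4.74 TPM in rostral cortex, caudal cortex and hippocampus, against 97.9, 225 and 85.5 TPM in pons, medulla and cord (-5.16 ± 0.57, adjusted p = 0.00136 by edgeR). Ahnak2 stood at 3.17, 5.39 and 1.61 TPM in forebrain, against 102, 141 and 95.4 TPM in pons, medulla and cord (-5.00 ± 0.39, adjusted p = 0.000504). Ret, a receptor for neurotrophic factors of the GDNF family, was at 2.49 to 3.16 TPM in forebrain and 23.3 to 30.9 TPM in hindbrain and cord, with close agreement among the sites of each side (-3.21 ± 0.16, adjusted p = 0.000213). Isl1, a homeobox marker of motor neurons, overlapped between the sides, at 4.57, 0.0418 and 0.809 TPM in rostral cortex, caudal cortex and hippocampus, against 1.83, 2.89 and 1.3 TPM in pons, medulla and cord (-0.13 ± 1.08, adjusted p = 0.943).

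Among 24 neuropeptide and granin genes tested, 2 were higher in forebrain and 7 lower. Vip and Cck, peptides of cortical interneurons, were the pair that was higher. Vip stood at 54.9, 126 and 69.7 TPM in rostral cortex, caudal cortex and hippocampus, against 2.32, 7.35 and 5.71 TPM in pons, medulla and cord (4.05 ± 0.47, adjusted p = 0.0016 by edgeR). Calca, which encodes calcitonin gene-related peptide, stood at 0.492, 0.364 and 0.156 TPM in forebrain, against 13.6, 40.5 and 21.4 TPM in pons, medulla and cord (-6.12 ± 0.60, adjusted p = 0.000876). Trh, the thyrotropin-releasing hormone gene, was set by 1 library: it stood at 1262 TPM in medulla and 136 TPM in cord, against 12.2 TPM in pons, while forebrain sites held 3.9 to 11.5 TPM. Its call (-6.08, adjusted p = 0.0371) ended without any of caudal cortex, hippocampus, rostral cortex, medulla or spinal cord (adjusted p 0.0519 to 0.11), the change being -3.42 without medulla; it also ended with the hippocampus of T426 in place (adjusted p = 0.0666) and by limma (0.0972). Sst did not differ beyond its spread, at 507 to 696 TPM in forebrain and 365 to 1345 TPM in hindbrain and cord (-0.42 ± 0.42, adjusted p = 0.501).

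Receptors for the fast transmitters were on balance higher in forebrain. Of 24 glutamate receptor genes 8 were higher and 1 was lower, with a median log2 fold change of 0.69; of 15 GABA receptor genes 7 were higher and 1 was lower, with a median of 1.32, beside 0.01 over all genes tested. Subunits of the same receptor family went different ways. Among NMDA receptor subunits, Grin2a stood at 21.1, 25.5 and 37.4 TPM in rostral cortex, caudal cortex and hippocampus, against 6.54, 8.13 and 5.9 TPM in pons, medulla and cord (2.05 ± 0.23, adjusted p = 0.0014 by edgeR). Grin2b (1.75) and Grin2c (1.38) were also higher. The 1 glutamate receptor gene lower in forebrain was another NMDA subunit, Grin3a, at 28.4, 45.0 and 38.6 TPM in forebrain, against 66.0, 86.4 and 91.0 TPM in pons, medulla and cord (-1.1 ± 0.19, adjusted p = 0.00638); without rostral cortex it was short of the threshold (-0.95). Grin2d stood at 7.66 to 9.8 TPM in forebrain and 17.3 to 19.9 TPM in hindbrain and cord, a change of -1.0 that came just short of the fold threshold (adjusted p = 0.00149). Gabra4, a GABA-A receptor subunit of forebrain neurons, stood at 164, 157 and 170 TPM in forebrain, against 26.2, 39.0 and 33.4 TPM in pons, medulla and cord (2.34 ± 0.16, adjusted p = 0.000361). The member lower in forebrain was Gabra6, the granule cell subunit of the cerebellum named above, with 2 counts in forebrain and 285 in hindbrain and cord, a ratio of 140 (38.4 to 1160); its call ended without caudal cortex (adjusted p = 0.0531) and by limma on log2(TPM + 1) (0.088).

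Muscarinic receptors showed the sharpest split among the modulator receptors, of which 7 were higher and 4 lower of 26 tested (5 and 2 without the pons, 6 and 2 with the hippocampus of T426 in place). Chrm1 stood at 84.7, 169 and 120 TPM in rostral cortex, caudal cortex and hippocampus, against 1.83, 1.3 and 1.15 TPM in pons, medulla and cord (6.45 ± 0.33, adjusted p = 0.000226 by edgeR). Chrm2, which couples to inhibitory G proteins and serves as an autoreceptor of cholinergic neurons, was at 27.4, 43.8 and 21.6 TPM in forebrain, against 96.7, 78.4 and 59.3 TPM in pons, medulla and cord (-1.31 ± 0.28, adjusted p = 0.0156). The call of Chrm2 ended without rostral cortex (-1.24, adjusted p = 0.0533) or pons (-1.12, adjusted p = 0.0526) and with the hippocampus of T426 in place (-1.4, adjusted p = 0.0617). Chrm3 and Chrm4 were higher in forebrain by 1.59 and 2.79 on the log2 scale. The cannabinoid receptor Cnr1 was at 190, 122 and 266 TPM in forebrain, against 64.4, 62.5 and 50.7 TPM in pons, medulla and cord (1.73 ± 0.28, adjusted p = 0.00533).

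The postsynaptic machinery of spiny neurons was higher in forebrain almost throughout: 21 of 25 genes tested were higher and none was lower, with a median log2 fold change of 2.07. Ddn, which encodes the dendritic protein dendrin, stood at 2030, 1869 and 2914 TPM in rostral cortex, caudal cortex and hippocampus, against 3.24, 5.76 and 16.8 TPM in pons, medulla and cord (8.07 ± 0.66, adjusted p = 0.000599 by edgeR). Nrgn, neurogranin, which binds calmodulin in spines, was at 2673, 4127 and 2166 TPM in forebrain, against 40.3, 56.1 and 105 TPM in pons, medulla and cord (5.5 ± 0.45, adjusted p = 0.000599). Itpka, an inositol trisphosphate kinase of spines, stood at 197, 249 and 293 TPM in forebrain, against 2.15, 3.29 and 4.17 TPM in pons, medulla and cord (6.29 ± 0.27, adjusted p = 0.000144). For all 3 genes the cord was the highest of the low sites. Camk2a, the alpha subunit of CaM kinase II, was at 1027 to 1305 TPM in forebrain and 43.0 to 113 TPM in hindbrain and cord (3.98 ± 0.37), while its beta subunit Camk2b changed less, at 471 to 546 TPM in forebrain and 213 to 234 TPM in hindbrain and cord (1.21 ± 0.11). The scaffold Dlg4, which encodes PSD-95, was higher by 1.23. The members not called were Camkk1 (0.17), Psd (0.28), Bdnf (0.78) and Ppp1r1b (3.50 ± 1.11, adjusted p = 0.0548).

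Ppp1r1b, which encodes DARPP-32 of striatal projection neurons, was carried by 1 forebrain library, at 402 TPM in rostral cortex but 48.4 TPM in caudal cortex and 22.6 TPM in hippocampus, against 8.44 to 22.6 TPM in hindbrain and cord. Other genes known from striatal neurons were high in that library too, a set put together after their values had been seen. The dopamine receptor gene Drd1 stood at 73.1 TPM in rostral cortex, 8.5 TPM in caudal cortex and 7.4 TPM in hippocampus, against 0.941, 0.877 and 1.71 TPM in pons, medulla and cord. Its change was 4.71 (adjusted p = 0.0182) and 2.77 without rostral cortex, and the call ended without medulla (adjusted p = 0.0705), pons (0.0674) or spinal cord (0.0547) and by limma with no filter (0.0522). Penk stood at 1703 TPM in rostral cortex, against 391 and 152 TPM in the other forebrain sites and 495 to 1457 TPM in hindbrain and cord. How much of the rostral cortex library came from tissue beneath the cortex was not tested.

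Immediate early genes, which neurons switch on within minutes of activity, were higher in forebrain for 17 of 21 and lower for none, with a median log2 fold change of 2.86. With the hippocampus of T426 in place of that of T3F, 12 of the 21 were higher and none was lower (median 2.7). The list summed to 1242 TPM in the T426 library, beside 2186 TPM in the hippocampus of T3F. Egr4 stood at 36.8, 128 and 24.6 TPM in rostral cortex, caudal cortex and hippocampus, against 0.818, 0.22 and 1.12 TPM in pons, medulla and cord (6.42 ± 0.88, adjusted p = 0.00285 by edgeR). Arc, which encodes a protein that regulates AMPA receptor traffic, was at 725, 2094 and 662 TPM in forebrain, against 70.8, 54.6 and 60.4 TPM in pons, medulla and cord (4.24 ± 0.49, adjusted p = 0.00156). Junb was at 217, 586 and 152 TPM in forebrain and 28.0 to 33.1 TPM in hindbrain and cord (3.37 ± 0.51, adjusted p = 0.00404). Caudal cortex was the highest site for each of these genes, and the summed level of the list was 2684, 6602 and 2186 TPM in rostral cortex, caudal cortex and hippocampus, against 707, 641 and 644 TPM in pons, medulla and cord. The members not called were Fos (1.45 ± 0.63, adjusted p = 0.13), Jun (-0.05), Dusp1 (0.93) and Ier2 (1.4). Fos stood at 25.9, 80.1 and 12.2 TPM in forebrain, which overlapped the 10.7 to 17.7 TPM of hindbrain and cord. Egr1 was higher by 3.61 (adjusted p = 0.00731), and its call ended with the hippocampus of T426 in place (3.49, adjusted p = 0.0555).

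Genes of the presynaptic terminal and others that neurons in general express, such as the splicing factor Rbfox3, were listed together and went both ways: of 26 tested 6 were higher in forebrain and 4 lower, with a median log2 fold change of -0.01 (3 and 4 without caudal cortex, or with the hippocampus of T426 in place). Snap25 changed by -0.04 ± 0.18 (adjusted p = 0.882). Rbfox3 was higher by 1.09, short of the threshold without caudal cortex (0.83) and no longer called without medulla (adjusted p = 0.0543) or with the hippocampus of T426 in place (0.123). Among genes of the terminal, several related pairs went opposite ways. Syt1, the calcium sensor of fast release in forebrain, stood at 687, 1341 and 1044 TPM in rostral cortex, caudal cortex and hippocampus, against 306, 286 and 222 TPM in pons, medulla and cord (1.94 ± 0.25, adjusted p = 0.0023 by edgeR). Syt2, its relative in hindbrain and cord synapses, was at 6.03, 9.9 and 3.39 TPM in forebrain, against 54.4, 50.5 and 26.4 TPM in pons, medulla and cord (-2.73 ± 0.43, adjusted p = 0.00473). Vamp1 was lower in forebrain by 2.48 on the log2 scale, at 48.6 to 79.5 TPM in forebrain and 240 to 434 TPM in hindbrain and cord. Vamp2 was higher by 1.05 (0.97 without spinal cord, 0.87 without caudal cortex, 0.96 with upper-quartile scaling and 0.90 with the hippocampus of T426 in place, all short of the threshold of 1). Cplx2 was higher by 1.71 and Cplx1 lower by 1.06 (0.94 to 0.98 in size and short of the threshold without hippocampus, rostral cortex or pons).

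Channels of neurons followed the same division, with 10 of 31 sodium, potassium and HCN channel genes higher in forebrain and 4 lower (median 0.59). Kcnh3, a potassium channel of the ether-a-go-go family known from forebrain, stood at 37.7, 46.5 and 19.4 TPM in rostral cortex, caudal cortex and hippocampus, against 0.136, 0.175 and 0.506 TPM in pons, medulla and cord (7.02 ± 0.55, adjusted p = 0.000547 by edgeR). The inward rectifier Kcnj4 was at 655, 807 and 324 TPM in forebrain, against 31.8, 16.8 and 16.6 TPM in pons, medulla and cord (4.79 ± 0.44, adjusted p = 0.000709). Kcnc1, a channel of fast-spiking neurons, was at 66.0 to 120 TPM in forebrain and 237 to 243 TPM in hindbrain and cord (-1.33 ± 0.19, adjusted p = 0.00343). The pacemaker channels Hcn2 and Hcn4 were lower in forebrain by 1.5 and 2.15.

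Axon genes were lower in forebrain in 6 of 17, with none higher and a median of -0.16. The 3 neurofilament subunits were among them: Nefh stood at 155, 224 and 227 TPM in rostral cortex, caudal cortex and hippocampus, against 1410, 1250 and 940 TPM in pons, medulla and cord (-2.55 ± 0.21, adjusted p = 0.000589 by edgeR). Nefm was lower by 2.08 and Nefl by 1.70. Gap43, a growth cone protein kept in many adult terminals, was at 1413 to 1992 TPM in forebrain and 1297 to 1699 TPM in hindbrain and cord (0.24, adjusted p = 0.342).

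Myelin genes were lower in forebrain for 27 of 33 tested and higher for none, with a median log2 fold change of -1.66. Mbp, a main protein of compact myelin, stood at 745, 500 and 572 TPM in rostral cortex, caudal cortex and hippocampus, against 2048, 1881 and 3478 TPM in pons, medulla and cord (-2.0 ± 0.30, adjusted p = 0.00395 by edgeR). Mog, on the outer face of the sheath, was at 340, 239 and 313 TPM in forebrain, against 938, 877 and 1059 TPM in pons, medulla and cord (-1.66 ± 0.17, adjusted p = 0.000938). Klk6, a secreted protease of oligodendrocytes, changed most, at 26.3, 14.5 and 16.2 TPM in forebrain, against 214, 186 and 332 TPM in pons, medulla and cord (-3.66 ± 0.33, adjusted p = 0.000699). Trf was lower by 2.52 and Mobp by 1.68; the call of Mobp ended with the hippocampus of T426 in place (-2.04, adjusted p = 0.0599). Tubb4a, a tubulin that myelinating oligodendrocytes also make, was at 1374 to 1475 TPM in forebrain and 3099 to 3497 TPM in hindbrain and cord (-1.22 ± 0.11). Cnp was listed at 0 in all 6 libraries. The factors that span the lineage changed less: Olig1 and Olig2 were lower by 0.68 and 0.61, which passed on p (0.00972 and 0.029) but not on fold. Of 12 genes of the precursor list 3 were lower in forebrain and none was higher (median -0.33). Lhfpl3 was lower by 1.37 (adjusted p = 0.00406), as was Bcas1 (adjusted p = 0.00437), whose call ended with the hippocampus of T426 in place (-1.74, adjusted p = 0.0541). C1ql1 was at -2.04, and at -1.18 without medulla; its call ended without caudal cortex, hippocampus or rostral cortex (adjusted p 0.0632 to 0.0771) and by limma with no filter (0.056). The defining precursor markers were not called, with Pdgfra at 25.1 to 31.2 TPM in forebrain and 27.1 to 30.5 TPM in hindbrain and cord (0.01 ± 0.11, adjusted p = 0.948) and Gpr17 at 226 to 273 TPM in forebrain and 220 to 278 TPM in hindbrain and cord (0.05 ± 0.13, adjusted p = 0.811). Cholesterol synthesis genes, which supply the sheath, were lower for 4 of 22 and higher for none (median -0.78). In the optic nerve of the same animal, a pure tract, the myelin list summed to 66360 TPM, beside 6162 to 8964 TPM in forebrain and 21090 to 28890 TPM in hindbrain and cord.

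Astrocyte genes split between the sides, with 6 of 20 higher in forebrain and 1 lower (median 0.49). The glutamate transporters Slc1a2 and Slc1a3 led those that were higher: Slc1a2 was at 532, 331 and 501 TPM in rostral cortex, caudal cortex and hippocampus, against 48.7, 40.9 and 61.2 TPM in pons, medulla and cord (3.21 ± 0.25, adjusted p = 0.000524 by edgeR). Slc1a3 was higher by 2.46, Cldn10 by 1.80, Mlc1 by 1.47 and Sox9 by 1.23. Gfap, the filament of fibrous astrocytes, was the member that was lower, at 108, 78.8 and 172 TPM in forebrain, against 240, 444 and 588 TPM in pons, medulla and cord (-1.80 ± 0.40, adjusted p = 0.0162); without rostral cortex its call ended (-1.74, adjusted p = 0.0555). The water channel Aqp4 (-0.20) and Aldoc (-0.19) were not called. No gene of the microglia list (14 tested, median 0.15) and none of the endothelium and pericyte list (14 tested, median -0.31) was called, nor any of 35 genes of oxidative phosphorylation (median -0.30) or 33 ribosomal protein genes (median 0.19).

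**Figure D4:**
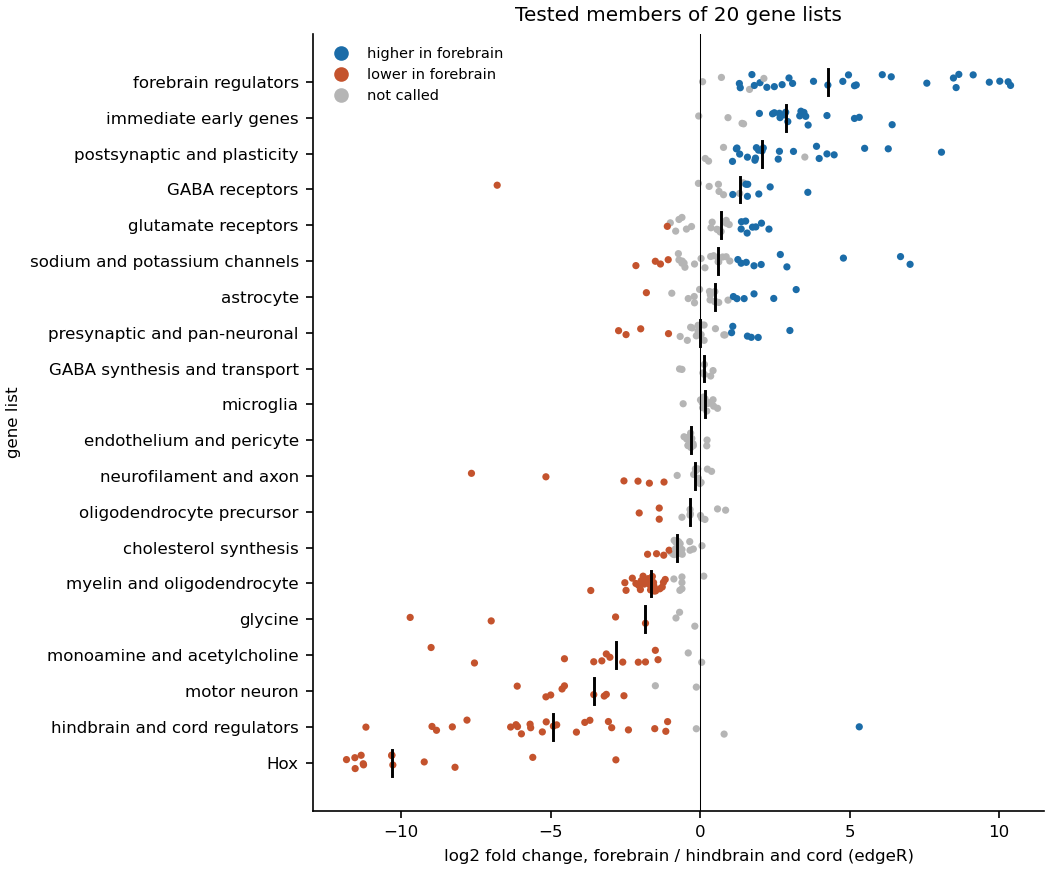
Tested members of 20 gene lists, 1 point a gene, by edgeR's log2 fold change of forebrain over hindbrain and cord; blue points were called higher in forebrain, orange points lower, grey points were not called, and the black bar is the median of the list. Lists run from the forebrain regulators (median 4.27) at the top to the Hox genes (median -10.32) at the bottom; values of genes at 0 on one side depend on the model's prior count.

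Genes known from tissue next to hindbrain and cord were higher in several of those libraries than in forebrain. Prl and Gh, the hormones of the anterior pituitary, which lies under the brain, were called: Prl stood at 10.7, 7.96 and 8.12 TPM in rostral cortex, caudal cortex and hippocampus, against 1854, 870 and 452 TPM in pons, medulla and cord (-6.84 ± 0.69, adjusted p = 0.000938 by edgeR). Of the 8 pituitary genes, a list added after the values were seen, 4 were tested and 3 were lower in forebrain, the other being Lhb, at 1.33 to 2.12 TPM in forebrain and 1.51 to 2.86 TPM in hindbrain and cord; their sum was 22.0 to 33.2 TPM in forebrain and 828 to 3194 TPM in hindbrain and cord. The third pituitary call, Pomc, was at -2.38, and at -1.4 without pons; it ended without caudal cortex, hippocampus or rostral cortex (adjusted p 0.0745 to 0.0795) and with the hippocampus of T426 in place (0.0648), and by limma with no filter (0.0564). Choroid plexus genes were concentrated in 1 library: Ttr stood at 8.69, 4.82 and 24.8 TPM in forebrain, against 57.6 TPM in pons, 7643 TPM in medulla and 276 TPM in cord. The choroid plexus list had 2 of 9 called lower, 0 without caudal cortex or by limma on log2(TPM + 1), 1 without rostral cortex or by limma on log2(TPM + 0.1), and 5 without the pons. The change of Ttr was -7.69 and -3.71 without medulla, and its call ended without any of caudal cortex, hippocampus or rostral cortex (adjusted p 0.0621 to 0.0961) and by limma (0.0627). The sensory ganglion list summed to 14.8, 9.37 and 28.8 TPM in rostral cortex, caudal cortex and hippocampus, against 107, 239 and 93.4 TPM in pons, medulla and cord, with 1 of 4 tested lower in forebrain. That gene was Prph, which is also on the motor neuron list. Prph alone made up 97.9, 225 and 85.5 TPM of the sums in pons, medulla and cord. In rostral cortex, caudal cortex and hippocampus it made up 1.16, 4.88 and 4.74 TPM. The higher sums in hindbrain and cord were thus mostly Prph and do not describe the list as a group. Scn10a, a defining marker of the ganglia, was at 0 to 0.179 TPM in forebrain and 0.152, 0.932 and 3.5 TPM in pons, medulla and cord. The summed level of the erythroid list was 1058 to 1723 TPM in forebrain and 1800 to 4246 TPM in hindbrain and cord. Whether such tissue was carried over at dissection, and its part in any of the differences, was not tested.

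**Figure D5:**
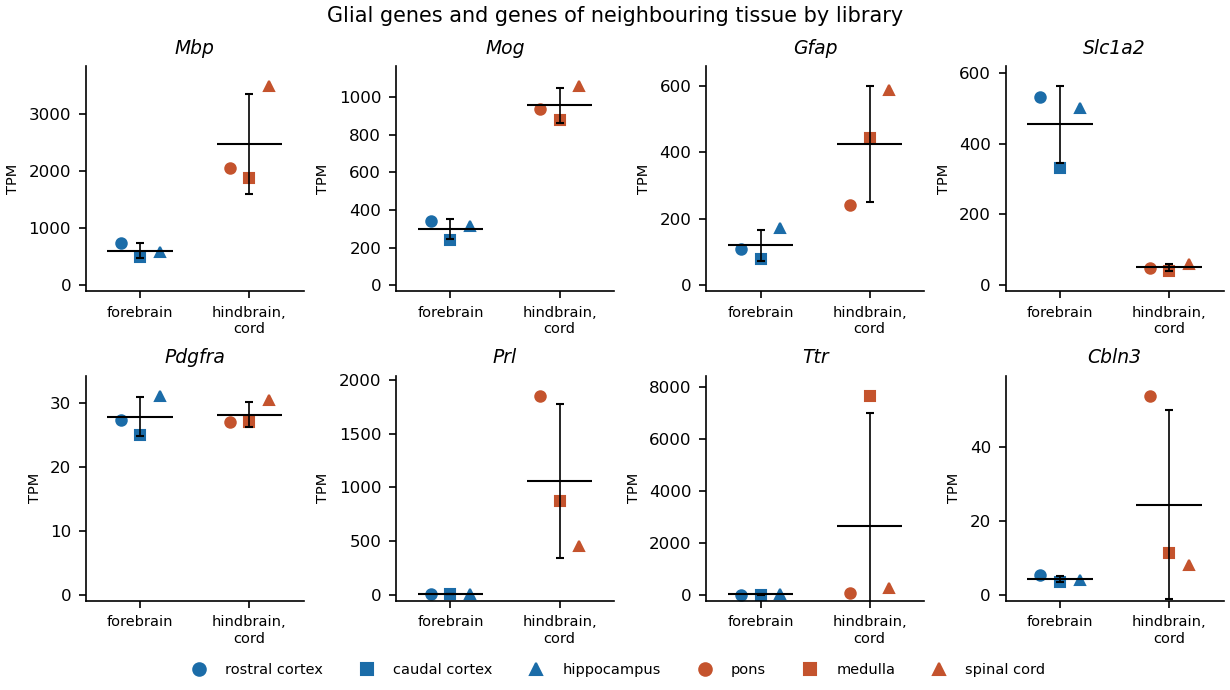
TPM of 5 glial genes and 3 genes of neighbouring tissue in each library, with forebrain at the left of each panel and hindbrain with cord at the right; points are single libraries with a symbol for each site, and bars are the mean and SD of 3 sites (lower ends under 0 are not drawn). Mbp, Mog and Gfap are higher in hindbrain and cord, Slc1a2 is higher in forebrain, Pdgfra overlaps, Prl (pituitary) steps down from 1854 TPM in pons to 452 TPM in cord, and Ttr (choroid plexus) and Cbln3 (cerebellar granule cells) each peak in 1 library.

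The hippocampus of a second animal, T426, gave a library that the main gene calls did not use. It held 3006119 expected counts and germ cell genes at a summed 47400 TPM, beside 87.8 to 112 TPM in the forebrain sites of T3F. Taking the midpoint between the mean log2(TPM + 1) of the sides for each gene, this library lay on the forebrain side for 832 of the 1036 genes higher in forebrain (80.3%) and for 663 of the 820 genes lower in forebrain (80.9%). Dlx5 stood at 9.52 TPM in it, and the forebrain regulator list summed to 3479 TPM, beside 4212 TPM in the hippocampus of T3F. That sum does not mark forebrain alone, since it was 3658 TPM in cerebellum, of which Neurod1 made up 2016 TPM. The other sites of T3F lay on the forebrain side as follows: thalamus with hypothalamus for 34.6% of the higher and 38.3% of the lower genes, midbrain for 23.9% and 47.3%, and cerebellum for 38.8% and 61.8%. These shares are descriptions with no test.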

How the data were processed

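Per the labels, polyadenylated RNA of each organ was made into Illumina TruSeq libraries and sequenced in paired ends. Per the submitters' processing notes reads were handled with Bowtie 0.12.8 and RSEM (version not listed); the reference build is not given in the sources used here. The authors deposited 1 table of RSEM expected counts and 1 of TPM, with gene rows named by mouse orthologue; 76.43% of the symbols match RefSeq's table for this species. Expected counts were rounded, since RSEM shares reads among similar transcripts and only 43.72% of the values were whole. Genes passing filterByExpr on the groups were tested with edgeR 4.0.16 (quasi-likelihood, TMM, R 4.3.3; Benjamini-Hochberg over all genes tested). Calls needed an adjusted p under 0.05 plus a change of 1 or more on the log2 scale, either way. The procedure was tested on simulated data.

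For a gene with no count on 1 side, the fold is a bound from 3 counts a library on a counts-per-million scale; with 1 to 3 counts, the ratio carries an exact 95% interval. Intervals and bounds cover counting error only.

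Named genes were up to 12 a direction with the largest change (called, at least 10 TPM on the higher side, no overlap), up to 5 a direction with the highest level, and members of 37 lists with counts of calls; exceptions are said to be chosen after their values were seen. The sites and lists were chosen with earlier results of these data known, and 1 list, pituitary, was added after its values were seen. Alternatives were RLE and upper-quartile scaling, DESeq2 1.42.0, no filter, limma 3.58.1 on log2(TPM + 1) or log2(TPM + 0.1), the hippocampus of T426 in place of that of T3F, and leaving out each library. Some genes that the rule or the lists hold are counted but not reported here by name.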

Additional observations from a re-analysis of the deposited data

How the results depend on the processing

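The count of genes higher in forebrain (1036) was 1025 with RLE scaling, 891 with upper-quartile scaling, 1151 by DESeq2, 1067 with no filter, 809, 911 and 779 by limma on log2(TPM + 1), on log2(TPM + 0.1) and with no filter, 795 with the hippocampus of T426 in place, and 817 to 1086 with 1 library left out. The count of genes lower in forebrain (820) was 825, 927, 910, 847, 720, 828, 693 and 611 in the same order, and 683 to 805 with 1 library left out. Of the 1036, 752 were called again with the T426 hippocampus, as were 547 of the 820. Upper-quartile scaling moved the median of all genes to -0.07. Of 142 genes named and tested, 109 were called, 80 of them in every alternative that gave a value, 25 lost the call with some library left out, and none changed sign. On the log2(TPM + 1) scale the change of genes near 0 on 1 side was smaller (Emx1 5.08, against 9.13 by edgeR). No list other than those stated with their counts above, and the lists of cerebellar, Schwann cell and meningeal genes, moved by over 1.5 times and by more than 1 gene in its calls: the cerebellar list (4 lower) had 1 or 2 lower by limma on log2(TPM + 1), with the T426 hippocampus, without caudal cortex or without rostral cortex, the Schwann cell list (2 higher, 4 lower) had 0 higher with the T426 hippocampus, and the meningeal list (1 lower) had 3 lower without spinal cord. By DESeq2, 20 of 29 Hox genes tested were lower, and by limma 5 pituitary genes were lower. No paired analysis was possible because the replicate numbers name sites only and pair no sites across the sides. With 1 animal, no value here measures the difference between animals, and genes under the count filter were not tested.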
